A study of Caenorhabditis elegans with 2 samples.

Results

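The genes examined here encode the initiation and elongation factors of protein synthesis in the nematode Caenorhabditis elegans. They were taken by name, as all protein-coding genes whose symbol begins with eif-, eef-, ife- or ifg-, and numbered 37 of 19985 protein-coding genes. Binding of the nuclear hormone receptor NHR-25 near them was read from ChIP-seq peak lists of whole hermaphrodite L4 larvae, the last larval stage. The worms were of strain OP33, with genotype unc-119(ed3) III; wgIs33, which stably expresses NHR-25 fused at its C terminus to GFP and FLAG. Chromatin was precipitated with an anti-GFP antibody. There were 2 biological replicates of this single group, and no other group is compared here. Every tissue was pooled in the chromatin, so a peak present in few cells and a weak peak present in many cannot be told apart.

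NHR-25 belongs to the NR5A family of nuclear receptors and is known in worms for its roles in the epidermis, in molting and in vulval and gonadal development. Initiation factors bring the initiator tRNA and the mRNA to the small ribosomal subunit. eIF2 carries that tRNA, eIF2B recharges eIF2 with GTP, the many-subunit complex eIF3 organises the small subunit, and eIF4E and eIF4G recruit capped mRNA. Elongation factors then work on the assembled ribosome. eEF1A delivers aminoacyl-tRNAs, the eEF1B and eEF1G subunits recycle it, and eEF2 moves the ribosome along the mRNA. All of these are housekeeping functions shared by every growing cell.

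A gene was called when its annotated 5′ end was the nearest protein-coding 5′ end to the summit of a thresholded peak and lay within 2 kb of it. The thresholded list held 1826 peaks, with signals from 30.3 to 1021 and a median of 41.2. These signals are the authors' own values, in units that the sources used here do not state. Ranks below run from 1 for the highest signal. They count peaks at mitochondrial genes too, such as those assigned to ND1, COX3 and ND6 at ranks 6, 8 and 12. The list for the pooled replicates held 30000 peaks, that for replicate 1 held 23929 and that for replicate 2 held 30000. Signals in different lists are set side by side but are not on a common scale. Read depth is unknown.

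Of the 37 translation factor genes, 8 were called, which is 21.6% (Clopper-Pearson 95% interval 9.83% to 38.2%), against 6.05% of all protein-coding genes. The interval covers counting error only, and the genes were chosen with earlier results of these data known, so it is no test. The 8 genes were eef-1G, eef-1A.2, eef-2 and eef-1B.1 among the elongation factors, eif-3.C, eif-3.B and eif-3.G of eIF3, and eif-2Bgamma of eIF2B. They held 9 thresholded summits, since eif-3.G had a pair of them. Of these summits, 7 had a signal above the median of the thresholded list. In the lists for single replicates, the same number of strongest peaks, 1826, was taken from each. Replicate 1 then gave 11 translation factor genes against 5.8% of all genes, and replicate 2 gave 7 against 5.96%. The same 7 genes were found in both replicates, against 3.54% of all genes. They were the 8 called genes without eef-1B.1.

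**Figure D1:**
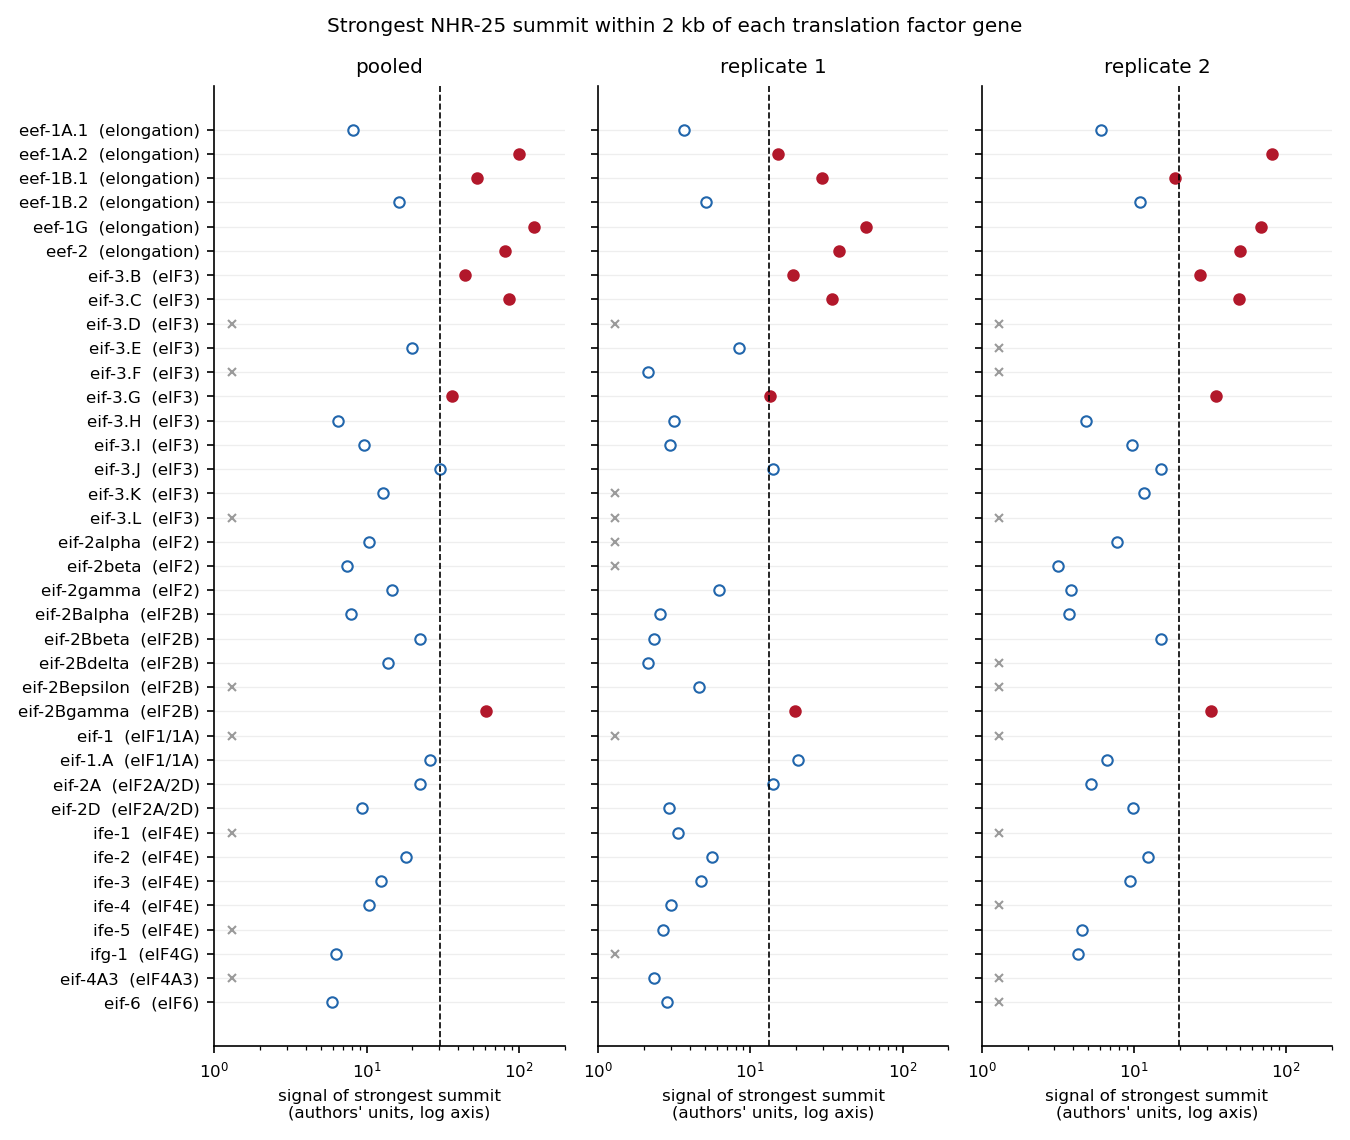
Signal of the strongest summit assigned to each of the 37 genes in the pooled list, in replicate 1 and in replicate 2, on log axes in the authors' units. Filled red points are the 8 called genes, open blue points the others, and crosses mark genes with no summit in that list. The dashed lines mark the signal of the peak ranked 1826 in each list. Of the 8 called genes, 4 are elongation factors and 3 are eIF3 subunits, and eif-3.J lies just short of the line in the pooled panel.

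The sequences at the summits are shown first, because these windows can be searched for the sites that NHR-25 and other factors are known to use. Each run comes from RefSeq's copy of the genome assembly WBcel235 (ce11), reads 5′ to 3′ in the direction of the translation factor gene, and spans up to 100 bases on each side of the summit. It stops where an exon of a protein-coding gene begins. The 5 capitals near the middle mark the summit, and any other capitals mark a match to a motif named in the text. The runs are those of eef-1G (chrV:10965576-10965718, plus strand), eef-1A.2 (chrX:7823227-7823427, plus strand), eef-1A.1 (chrIII:6971980-6972180, minus strand), eif-3.B (chrII:14795000-14795200, plus strand) and eif-2Bgamma (chrII:6968465-6968665, minus strand). The run of eef-1B.1 (chrIII:7973387-7973477, minus strand) holds no summit, which lies in its 5′ UTR, and shows the 91 bases before the 5′ end.
eef-1G: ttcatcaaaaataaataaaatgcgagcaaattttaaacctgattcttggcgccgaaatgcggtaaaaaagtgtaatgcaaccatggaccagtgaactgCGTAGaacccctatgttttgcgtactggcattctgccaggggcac
eef-1A.2: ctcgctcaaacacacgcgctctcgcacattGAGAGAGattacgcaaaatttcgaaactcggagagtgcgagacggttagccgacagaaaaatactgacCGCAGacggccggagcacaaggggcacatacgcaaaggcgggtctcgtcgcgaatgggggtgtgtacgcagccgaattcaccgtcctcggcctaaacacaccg
eef-1A.1: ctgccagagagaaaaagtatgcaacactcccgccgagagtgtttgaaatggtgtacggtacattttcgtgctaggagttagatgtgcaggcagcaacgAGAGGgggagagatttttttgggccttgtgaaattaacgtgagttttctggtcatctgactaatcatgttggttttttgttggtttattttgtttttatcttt
eif-3.B: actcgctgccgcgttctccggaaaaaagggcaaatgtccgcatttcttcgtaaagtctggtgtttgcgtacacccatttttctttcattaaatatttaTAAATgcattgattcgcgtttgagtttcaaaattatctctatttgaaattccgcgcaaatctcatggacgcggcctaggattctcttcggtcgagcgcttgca
eif-2Bgamma: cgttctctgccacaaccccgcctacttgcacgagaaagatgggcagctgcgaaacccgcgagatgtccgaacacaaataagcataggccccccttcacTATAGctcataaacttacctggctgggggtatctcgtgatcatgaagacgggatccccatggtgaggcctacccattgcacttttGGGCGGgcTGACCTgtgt
eef-1B.1: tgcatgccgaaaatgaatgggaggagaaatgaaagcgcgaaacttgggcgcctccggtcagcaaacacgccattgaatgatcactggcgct

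The site bound by NR5A receptors, searched as YCAAGGYCR with Y for either pyrimidine and R for either purine, was in none of these windows. Over the 9 summits of called genes it was found within 100 bases of 0 (Clopper-Pearson 95% interval 0% to 33.6%), against 3.45% of all 1826 thresholded summits. The EOR-1 type site GAGACGCAG and the E-box CACGTG were also at 0 of 9, against 12.2% and 8.38% of all summits. The E2F type site GCGGGAA was at 0 of 9, against 4.11%. The repeat GAGAGAG was at 1 of 9, against 20.6%, and is the first block of capitals in the eef-1A.2 run. The receptor core AGGTCA and the GC box CCGCCC were at 1 of 9 each, against 12.4% and 9.36%. Both were at eif-2Bgamma, where the printed strand shows their complements near its 3′ end. That end of the run lies inside sup-39, annotated as a small nuclear RNA gene from 6968394 to 6968558. The GATA site TGATAA was at 1 of 9, a summit of eif-3.G, against 12.2%. All motifs were searched on both strands, and the receptor core can form part of an NR5A site. In all, 6 of the 9 summits held none of the 8 motifs, and 9 summits are too few to show that a site is rarer there than elsewhere. With 150 bases on each side, the GATA site was at 3 of 9 summits, against 20.2% of all. The windows of called genes had 36.8% to 56.7% G and C, with a median of 42.3%, against a median of 43.8% and quartiles of 39.3% and 48.8% for all thresholded summits.

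Of the elongation factor genes, 4 of 6 were called, against 6.05% of all protein-coding genes, a small count that only describes these genes. The highest pooled signal of the translation factor genes was at eef-1G (WBGene00008920), which encodes the gamma subunit of eEF1. Its peak, on chromosome V from 10965583 to 10965782, had a pooled signal of 126.5 and ranked 47 of 1826. Its signal was 57.8 in replicate 1, where it ranked 33, and 68.0 in replicate 2, where it ranked 72. The summit lay 43 bp upstream of the 5′ end, in the short interval between eef-1G and ctf-4, a gene on the opposite strand whose 5′ end was 137 bp away. Both replicates therefore placed this peak among their 100 strongest, and their summits were 2 and 27 bp from the pooled summit.

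The paralogs eef-1A.1 and eef-1A.2 both encode eEF1A, and only eef-1A.2 (WBGene00001169) was called. Its peak, on the X chromosome from 7823255 to 7823352, had a pooled signal of 99.5 and ranked 86. It ranked 41 in replicate 2, with a signal of 80.5, above that of eef-1G there, and 1344 in replicate 1, with a signal of 15.3. Both replicates thus had it among their 1826 strongest peaks, but replicate 1 far lower in the order. The summit lay 327 bp upstream of the 5′ end, with no other protein-coding 5′ end within 2 kb. The annotated noncoding RNA R03G5.8, on the opposite strand, lies 58 bp away. A further thresholded peak had its summit 2218 bp downstream of the 5′ end, past the 2 kb limit. Its pooled signal was 37.0 and its rank 1199. In replicate 1 the peak there ranked 492, above the upstream peak, and in replicate 2 it ranked 2930.

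At eef-1A.1 the strongest assigned pooled summit had a signal of 8.08 and ranked 14918, inside the gene. However, a thresholded peak from 6971989 to 6972170 on chromosome III stood 368 bp upstream of the eef-1A.1 5′ end and was assigned to rfc-4, whose 5′ end on the opposite strand was 173 bp from it. Its signal was 97.2 and its rank 87, next below that of eef-1A.2. It had a signal of 50.2 and rank 51 in replicate 1, and 50.9 and rank 157 in replicate 2. When every gene within 1 kb of a summit was counted, eef-1A.1 was the 1 gene added to the 8. This peak and the upstream peak of eef-1A.2 had nearly equal pooled signals, but their replicate signals differed. In replicate 1 they were 50.2 and 15.3, and in replicate 2 they were 50.9 and 80.5. By the rule used, eef-1A.1 was left uncalled because its neighbour's 5′ end was closer. Which of these neighbours the peak acts on was not tested. The windows of 201 bases around these summits shared no exact stretch longer than 8 bases on either strand.

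Of the other elongation factors, eef-2 (WBGene00001167), the translocase gene, had a peak on chromosome I from 9163454 to 9163576 with a pooled signal of 81.5 and rank 135. It ranked 119 in replicate 1, with a signal of 38.4, and 164 in replicate 2, with a signal of 50.1. Its summit lay 45 bp upstream of the 5′ end and 220 bp from that of clsp-1, on the opposite strand. The nucleotide exchange factor gene eef-1B.1 (WBGene00018846) had a peak on chromosome III from 7973182 to 7973571 with a pooled signal of 52.8 and rank 497. It ranked 251 in replicate 1, with a signal of 29.4, and 2076 in replicate 2, with a signal of 18.6, so it missed the 1826 strongest there. The summit was 9 bp inside the 5′ UTR, within 1 bp of the summit in replicate 2 and 3 bp of that in replicate 1. An annotated noncoding RNA, F54H12.9, overlaps the summit, and the 5′ end of aco-2 was 340 bp away. The related gene eef-1B.2 was not called and had a signal of 16.4 in the pooled list, 5.10 in replicate 1 and 10.9 in replicate 2.

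**Figure D2:**
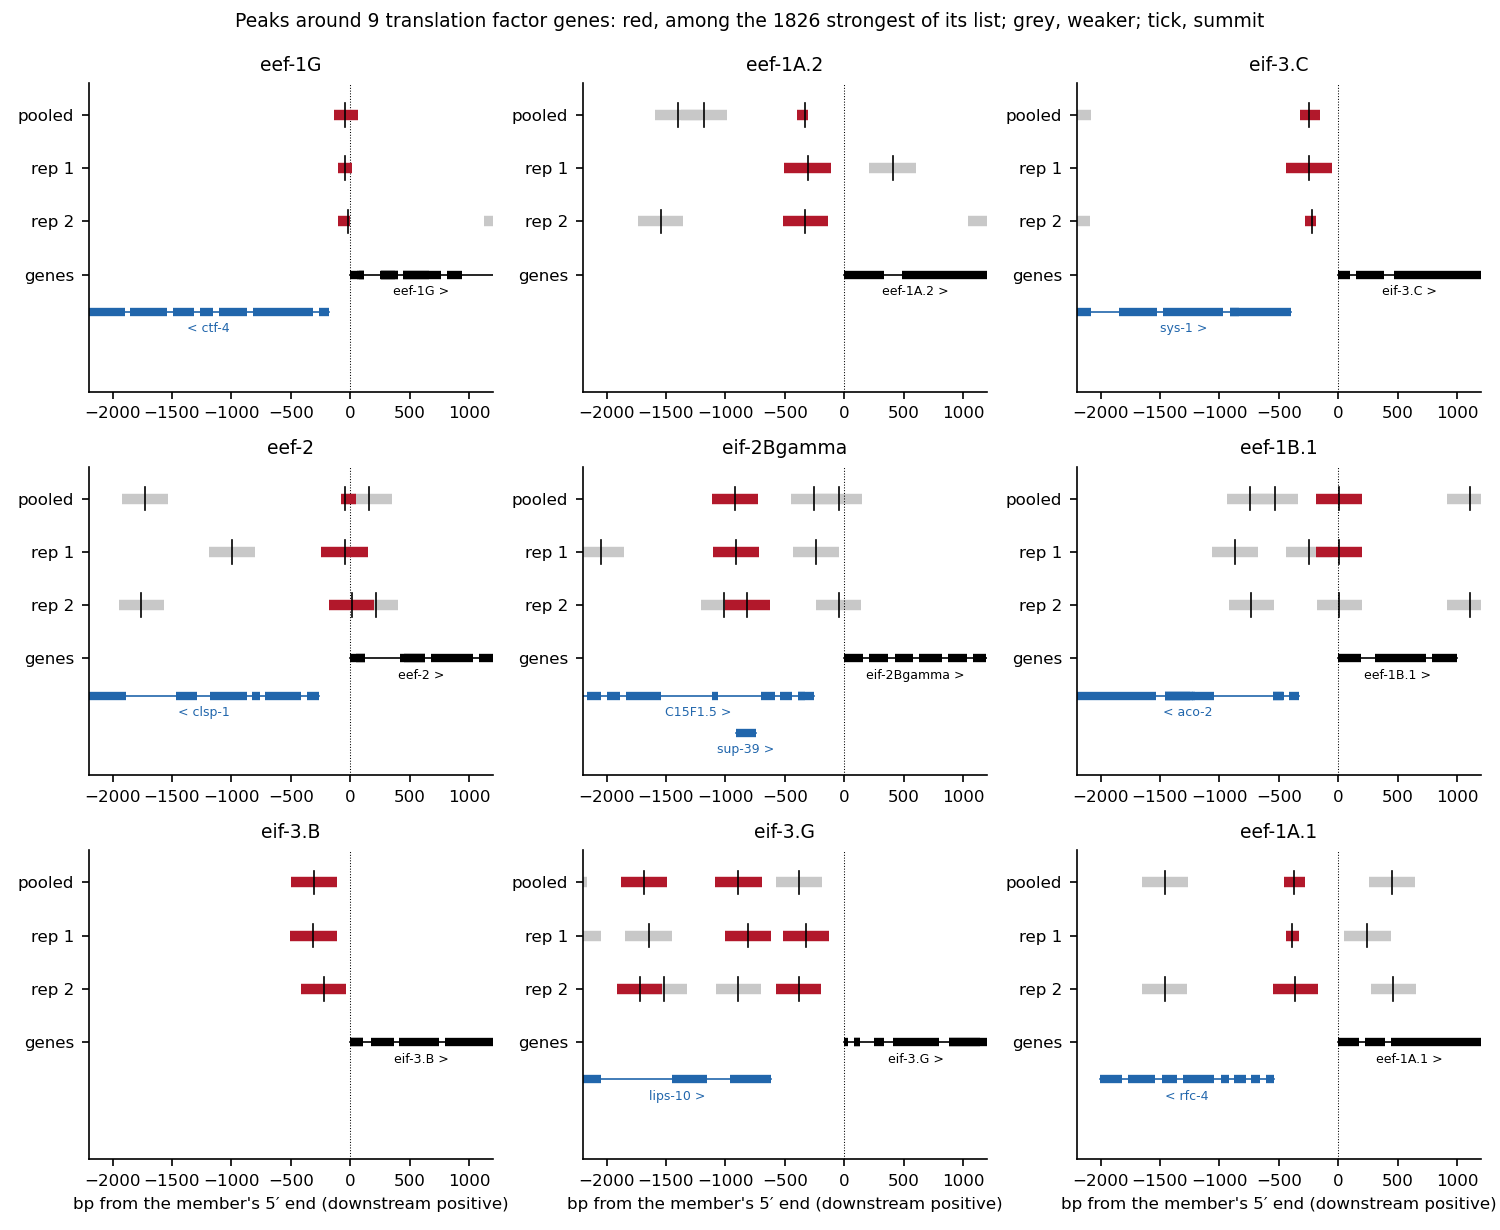
Peaks around the 8 called genes and eef-1A.1, drawn to scale against distance in bp from the most upstream annotated 5′ end of each gene, with the gene running to the right. Bars are peaks in the pooled list, replicate 1 and replicate 2, red where the peak is among the 1826 strongest of its list and grey where it is weaker, and ticks are summits. Exons of the gene are black and those of neighbours blue, with their direction marked. At eef-1G, eef-1A.2, eif-3.C, eef-2, eif-3.B and eef-1A.1 all 3 lists have a red peak close to the 5′ end, although that at eef-1A.1 is nearer to rfc-4, while the red peaks of eif-2Bgamma and the pooled red peaks of eif-3.G lie inside neighbouring genes.

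In eIF3, 3 of 11 subunit genes were called, against 6.05% of all genes. This count is small too, and eif-3.G dropped out of it with a limit of 500 bp. The highest signal was at eif-3.C (WBGene00001226), on chromosome I from 9979814 to 9979980, with a pooled signal of 86.3 and rank 118. Its signal was 34.3 in replicate 1, where it ranked 159, and 49.1 in replicate 2, where it ranked 175. The summit lay 244 bp upstream, between the gene and the end of sys-1 on the same strand, and the replicate summits were 1 and 21 bp from it. Next was eif-3.B (WBGene00001225), on chromosome II from 14794905 to 14795294, with a pooled signal of 44.5 and rank 772. It ranked 828 in replicate 1, with a signal of 18.9, and 893 in replicate 2, with a signal of 27.1. Its summit lay 304 bp upstream, and no other protein-coding 5′ end was within 2 kb.

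The summits at eif-3.G (WBGene00001230), an RNA-binding subunit gene, were unlike those of the other 2 subunits. Both lay inside the upstream gene lips-10. The first, on chromosome II from 8440889 to 8441278, was in an intron 1683 bp upstream of eif-3.G, with a pooled signal of 36.6 and rank 1229. It ranked 2451 in replicate 1, with a signal of 11.4, and 465 in replicate 2, with a signal of 34.3. The second, from 8441682 to 8442071, was in a coding exon 890 bp upstream, with a signal of 31.9 and rank 1663, close to the lowest thresholded signal of 30.3. It ranked 1813 in replicate 1 and 2539 in replicate 2, so neither summit was among the 1826 strongest of both replicates. Another pooled summit, 381 bp upstream of eif-3.G and outside lips-10, had a signal of 27.5 and rank 2189. It was below the threshold in the pooled list, although a peak near it was among the 1826 strongest of both replicates, with rank 1746 and a signal of 13.5 in replicate 1, 322 bp upstream, and rank 1445 and a signal of 22.0 in replicate 2.

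The remaining 8 subunit genes were not called. The nearest to the threshold was eif-3.J, the loosely attached subunit, with a pooled signal of 30.2 and rank 1842, just outside the list. Its summit lay 961 bp upstream, past the near end of slc-25A46, a gene on the same strand with a gap of 877 bp to eif-3.J. The strongest summit of eif-3.J ranked 1608 in replicate 1 and 3015 in replicate 2. Pooled signals were 19.9 at eif-3.E, 12.8 at eif-3.K, 9.56 at eif-3.I and 6.53 at eif-3.H. No pooled summit was assigned to eif-3.D, eif-3.F or eif-3.L. In the pooled list, subunits of the same complex therefore ranged from no assigned summit to a rank of 118.

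Among the 8 genes of eIF2 and eIF2B, 1 was called, against 6.05% of all genes, and so small a count is no result about the group. The eIF2 subunit genes eif-2alpha, eif-2beta and eif-2gamma had pooled signals of 10.3, 7.41 and 14.6, and none was among the 1826 strongest peaks of either replicate. eif-2gamma had signals of 6.18 in replicate 1 and 3.87 in replicate 2. In eIF2B, the exchange factor of eIF2, eif-2Bgamma (WBGene00004090) had a pooled signal of 61.2 and rank 325, at 6968370 to 6968759 on chromosome II. It ranked 752 in replicate 1, with a signal of 19.7, and 551 in replicate 2, with a signal of 32.2. This summit was 917 bp upstream of the gene, in an intron of C15F1.5. It lay 103 bp from the summit of replicate 2 and 8 bp from that of replicate 1, and 7 bp from sup-39, annotated as a small nuclear RNA gene, on the same strand. With noncoding genes counted as well, the nearest 5′ end to this summit was no longer that of eif-2Bgamma. The other eIF2B genes had pooled signals of 22.3 at eif-2Bbeta, 13.9 at eif-2Bdelta and 7.87 at eif-2Balpha, and eif-2Bepsilon had none. The strongest summit of eif-2Bbeta ranked 21367 in replicate 1, inside the gene, and 3050 in replicate 2, just upstream.

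The genes for cap-binding proteins and their scaffold had weak assigned summits or none in the pooled list. None of these 6 was called, against 6.05% of all genes, and so few genes could show no shortfall. The eIF4E genes bind the mRNA cap, and of the 5 of them ife-2 had a pooled signal of 18.1, ife-3 of 12.3 and ife-4 of 10.3, with ranks from 4542 to 10728. At ife-2 the signal was 5.57 in replicate 1 and 12.4 in replicate 2. ife-1 and ife-5 had no pooled summit. The scaffold gene ifg-1, which encodes eIF4G, had a pooled signal of 6.28, with a summit 1761 bp inside the gene from its nearest 5′ end. The RNA helicase gene eif-4A3, whose product is part of the exon junction complex, had no pooled summit, and eif-6, whose product keeps the ribosomal subunits apart, had a signal of 5.92.

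Of the start codon selection factors, eif-1.A had a pooled signal of 26.1, rank 2429, with a summit 356 bp upstream. Its replicates were far apart, with rank 685 and a signal of 20.6 in replicate 1 and rank 11553 and a signal of 6.62 in replicate 2. eif-1 had no summit assigned to it in any of the lists. Of the genes for alternative initiator tRNA factors, eif-2A also differed between replicates, with a pooled signal of 22.3, rank 1612 in replicate 1 and rank 15958 in replicate 2. eif-2D had a pooled signal of 9.305.

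**Figure D3:**
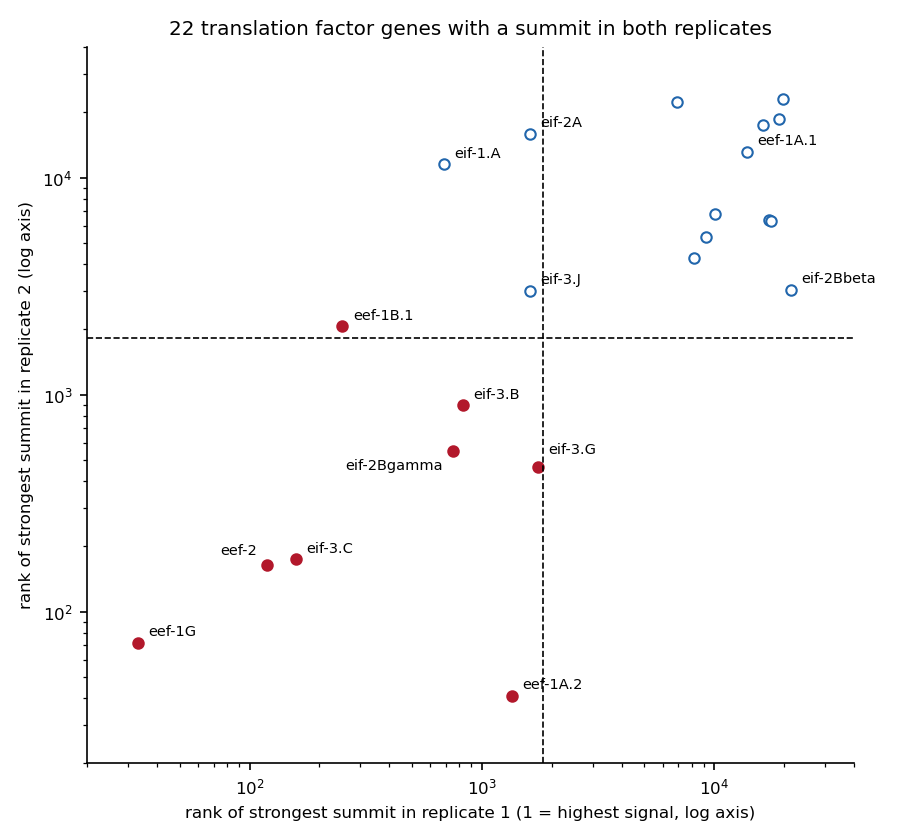
Rank of the strongest summit in replicate 1 against that in replicate 2 for the 22 genes with a summit in both, on log axes where 1 is the highest signal. The strongest summit of a gene need not be the same peak in both replicates. At eif-3.G it lay 322 bp upstream in replicate 1 and 1721 bp upstream in replicate 2. Red points are called genes, open points the others, and the dashed lines are at rank 1826. All called genes lie inside both lines except eef-1B.1, at rank 2076 in replicate 2, and eif-1.A, eif-2A and eif-3.J lie inside the line for replicate 1 alone.

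Weak peaks were common near the translation factor genes. In the pooled list, which by its label also holds background, 29 of the 37 had a summit, against 46.3% of all genes. The numbers were 30 in replicate 1, against 44.6% of all genes, and 26 in replicate 2, against 49.5%, and 22 genes had a summit in both. No summit in any list was assigned to eif-1, eif-3.D and eif-3.L. Over the 29 genes with a pooled summit, the median signal of the strongest was 16.4, against 10.8 over all 9263 such genes. The medians were 4.93 against 5.03 in replicate 1 and 10.4 against 6.94 in replicate 2, so the pooled difference was not seen in replicate 1. These medians include the called genes with their strong peaks. Over the uncalled translation factor genes alone, they were 12.3 in the pooled list, 3.27 in replicate 1 and 7.17 in replicate 2. The strongest pooled summit lay within 500 bp of the 5′ end at 23 of 29 translation factor genes, 79.3%, against 51.7% of all genes with one.

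Most thresholded summits of the called genes lay close to the 5′ end. Of the 9, 6 lay within 500 bp of the 5′ end, 66.7% (Clopper-Pearson 95% interval 29.9% to 92.5%), against 58.5% of the 1392 thresholded summits assigned to any gene. With a limit of 500 bp, 6 of the 37 genes were called, against 3.89% of all genes, and eif-2Bgamma and eif-3.G dropped out. Upstream of the 5′ end lay 8 of the 9, against 76.8% of assigned summits. In the thresholded list, the peaks of eef-1A.2, eef-2 and eif-3.C were narrow, at 98, 123 and 167 bp. That of eef-1G measured 200 bp there, whereas the other 5 were 390 bp wide. Peaks under 200 bp made up 5.75% of the thresholded list but 42.2% of its 135 strongest, which include these 3. At eef-1A.2 and eef-2 the peaks of both replicates were wider than the thresholded peak. At eif-3.C the peak was wider in replicate 1 and narrower in replicate 2.

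**Figure D4:**
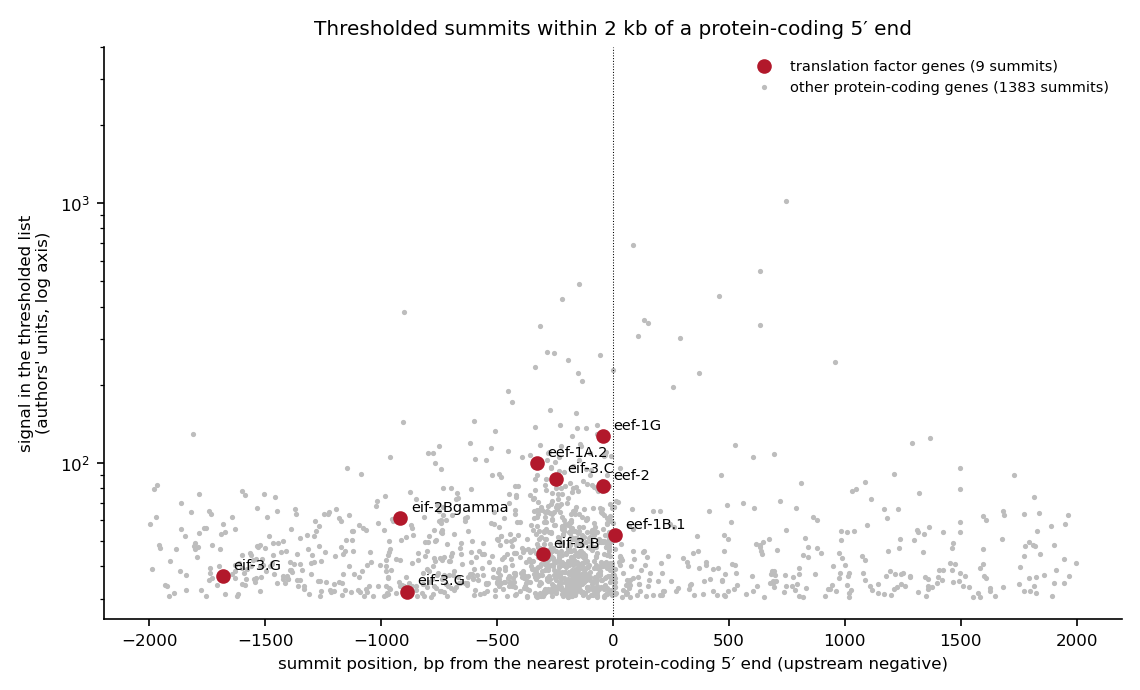
Signal in the thresholded list, on a log axis in the authors' units, against the distance in bp between summit and nearest 5′ end of a protein-coding gene, for all 1392 thresholded summits within 2 kb of one. The 9 summits of translation factor genes are red and labelled, and the others are grey. The red points of eef-1G, eef-1A.2, eif-3.C, eef-2 and eif-3.B lie in the dense band just upstream of the 5′ ends and that of eef-1B.1 just inside, while those of eif-2Bgamma and eif-3.G lie farther upstream.

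Other genes of protein synthesis, outside these names, were taken from 2 lists. These were written by hand with earlier results of these data known, so their shares only describe the listed genes. Of 20 symbols for initiation factors and their regulators 19 matched the annotation, and 5 were called, 26.3%, against 6.05% of all protein-coding genes. The highest was iff-2, an eIF5A gene, with a pooled signal of 129.1 and rank 44, 71 bp upstream of its 5′ end, and with ranks of 39 and 69 in replicates 1 and 2. Next was the kinase gene mnk-1, with 4 peaks of which the strongest had a signal of 59.1, 1495 bp inside the gene. The poly(A)-binding protein gene pab-2 had a signal of 41.5, the S6 kinase gene rsks-1 had 39.0 and the eIF2 kinase gene pek-1 had 37.7. The eIF4A gene inf-1 was not called, with a pooled signal of 23.7, nor was the TOR kinase gene let-363, which had no pooled summit. Of 9 symbols for elongation, termination and mitochondrial factors 7 matched and 1 was called, 14.3%, a single gene against the same 6.05%. It was the release factor gene erfa-3, with a signal of 30.6 and no summit in replicate 1. Genes of the ribosome itself, taken by the prefixes rpl- and rps-, were called at 19 of 47 and 13 of 31, which is 40.4% and 41.9%, against 6.05% of all genes. No test of a difference between these lists was made.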

How the data were processed

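NHR-25 ChIP-seq of whole L4 worms was measured in 2 replicates. Of the deposited files, 4 peak lists of genome build ce11 were used: 1 for each replicate, 1 for the pooled replicates and 1 thresholded list. By the file names, the thresholded list is the optimal set from an irreproducible discovery rate (IDR) procedure, and the others, peaks plus background, served as its input. Per the deposited text records, the replicate and pooled lists derive from the alignments and a further file that the records do not describe, and the thresholded list derives from those lists. The labels name a possible control, which was not used here. The peak caller, aligner and IDR threshold were not given in the sources used here. In each list, the authors' deposited signal value of each peak has no stated scale and was used within 1 list only. The summit offset is the deposited distance from the peak start in bp. The lists of build ce10 were not used.

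Genes were those of Ensembl release 115 on WBcel235, which is ce11, with 19985 protein-coding genes and 29326 distinct 5′ ends. Annotated 5′ ends of worm genes are often trans-splice sites, so true starts can lie farther upstream. Sequence is from RefSeq's WBcel235. Positions count from 1. Python 3.11.15, pandas 2.3.3 and scipy 1.17.1 were used, and the procedures were tested on simulated data. With a single group there is no test between groups. All members are accounted for, and the 8 with a thresholded summit are given in full, with the 10 of next highest pooled signal and those with no pooled summit. The members, lists and motifs were chosen with earlier results of these data known. Alternatives varied the window, the number of peaks, the summit position, the genes counted, the motif window and the replicates used.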

Additional observations from a re-analysis of the deposited data

How the results depend on the processing

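The number of translation factor genes called, 8 of 37, ranged from 7 without replicate 1 to 11 without replicate 2. The share of all genes called was 5.96% and 5.8% in these settings, against 6.05% as reported. The number of translation factor genes was 8 with a 1 kb window (4.87% of all genes), peak midpoints (6.04%) or overlapping peaks merged (6.03%), and 6 with a 500 bp window (3.89%). It was 7 when peaks at or below the median signal were dropped (3.2%), 9 with every gene within 1 kb (6.38%) and 12 with double the number of pooled peaks (11%). In alternatives chosen after seeing the data, it was 6 with noncoding genes counted (4.61%; eef-1A.2 and eif-2Bgamma lost), 7 with piRNA and other ncRNA genes set aside (5.53%) and 6 with summits inside other protein-coding genes left out (5.68%; eif-2Bgamma and eif-3.G lost). The share of member summits within 500 bp of the 5′ end was 75% without either replicate. The NR5A, EOR-1 type and E-box sites stayed at 0% in all alternatives run. The GAGA repeat, at 11.1%, was at 0% with 50 bp on each side, because its match lies farther out, and from 8.33% to 12.5% with 1 replicate left out. No paired analysis was possible because there is only 1 group. With 9 summits, shares of sites have wide intervals, and with no read counts the depth behind a signal is unknown.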

Other observations

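At drr-2, a gene of eIF4H type noticed after its values were seen, a thresholded peak with a signal of 155.6 and rank 30 lay 187 bp upstream and was assigned to set-16, whose 5′ end was 159 bp away. It ranked 22 in replicate 1 and 28 in replicate 2. In replicate 1 the nearest 5′ end was that of drr-2. Like the peak between eef-1A.1 and rfc-4, it was thus credited to the neighbour alone. Of the 8 called translation factor genes, 3 had a gene on the opposite strand within 500 bp upstream and 2 had one on the same strand, against 9 and 5 of the 29 others.

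In windows from 250 bases before to 50 after the annotated 5′ ends, the NR5A and EOR-1 type sites were at 0 of the 8 called and 0 of the 29 other translation factor genes. Over all protein-coding genes they were at 0.981% and 3.62%. The GATA site was at 3 of the 8 called and 11 of the 29 others, against 34.99% of all genes. The called genes lay on chromosomes I (2 of 12), II (3 of 11), III (1 of 5), V (1 of 4) and X (1 of 3), with 0 of 2 on IV. Over the whole genome 6.05% of protein-coding genes were called. That share was not taken for each chromosome, so these counts are no result about the chromosomes.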
